A study of Sus scrofa with 4 samples.

Results

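The extracellular matrix genes described here are *SPARC*, *DCN*, *THY1*, *MMP1*, *MMP2*, *MMP3*, *MMP9*, *TIMP1* and *TIMP2*. They were measured by 22 of the 43603 probes on the array, the ones whose RefSeq transcript accession belongs to 1 of these 9 genes in the NCBI gene table for the pig. Of all probes, 5461 carried a gene name found in this way, and they named 2389 genes. All 22 probes were single spots and lay well above background on all 4 arrays, so all 22 passed the filter on dim probes. None had an outlier flag or a saturated spot.

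The RNA came from ileum slices of suckling piglets aged 16 days, with Yorkshire × Landrace dams and Duroc sires, and was labelled with Cy3 for a 1-colour pig array. The low-gain group held 2 arrays, a and b, each from a pool of 2 piglets with low weight gain. The high-gain group held 2 arrays, a and b, each from a pool of 3 piglets with high weight gain. All piglets were nursed by lactating sows. The series' design text speaks of birth weight instead; groups here follow the labels of the samples. Nothing in the labels tells whether the letters stand for different pools, so p-values measure only the spread between arrays, which may be technical, and pooling hides variation between piglets. The title sets the comparison within a study of weight gain and the developing immune system.

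Between 32835 and 33972 of the 43803 spots that were not controls lay well above background on each array. The ileal label was checked against enterocyte markers. Of 14 markers, 10 had a named probe, and all 10 lay well above background on all 4 arrays, including *FABP6*, the bile acid-binding protein of the ileum (log2 level 8.68 in low gain and 8.66 in high gain). None of 11 fibroblast markers had a named probe here, so the cells that make most matrix could not be followed by markers of their own.

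The extracellular matrix is the protein scaffold around cells, made in the gut wall mainly by fibroblasts and smooth muscle. Matrix metalloproteinases are zinc-dependent enzymes, secreted as inactive precursors, that cut matrix proteins. Tissue inhibitors of metalloproteinases (TIMPs) bind the active enzymes and block them. In the intestine this system takes part in growth of the wall, in wound repair and in the passage of leukocytes through tissue. In the pig gene table *MMP1* and *MMP3* are adjacent, with *MMP8* and *MMP12* on either side, and *DCN* lies next to *LUM*, which encodes another small leucine-rich proteoglycan. These enzymes are related in sequence, and signal from a related transcript was not tested for.

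In these arrays the genes did not move in 1 direction. *SPARC*, *DCN* and *MMP2* had a signal between 1.36 and 1.44 times as high in low-gain ileum by the brightest probe of each gene. *TIMP1* was 1.19 times as high. *THY1* had a high-gain signal 1.43 times that of low gain, and *MMP9* 1.14 times. *MMP1*, *MMP3* and *TIMP2* differed by 0.047, -0.066 and -0.12 on the log2 scale (low minus high). None of these differences passed the test. Values are on a log2 scale relative to the 75th percentile of the same array, a difference is low gain minus high gain with its standard error from limma (n = 2 arrays per group), and the threshold was a Benjamini-Hochberg adjusted p of 0.05 over 33265 tested probes.

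Of the 22 probes, 0 passed, against 0.24% of all tested probes, with adjusted p-values from 0.184 to 0.832 in limma's moderated test. No probe on the array passed this test with an absolute difference under 1.49, and the largest among the 22 was 0.55. The count of 0 therefore says little about differences of this size. At an unadjusted p under 0.05 there were 9 of the 22 (8 higher and 1 lower in low gain), or 40.9%, where 18.4% of all tested probes reached this level. When limma's prior variance followed signal intensity, 6 of the 22 passed, 5 of *SPARC* and 1 of *DCN*, against 3.76% of all tested probes. With that setting and 1 array left out, 2 probes passed without high-gain array b, and 0 without low-gain array a, low-gain array b or high-gain array a. The 22 probes are not independent, since 7 read *SPARC* and 4 read *DCN*. Of the 9 genes, 3 had an unadjusted p under 0.05 by their brightest probe (*SPARC*, *DCN* and *MMP2*), or 33.3%, where 21.6% of all named genes did. Fewer cells of a type and less RNA per cell cannot be told apart in tissue samples.

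For 14 of the 22 probes both low-gain arrays lay above both high-gain arrays (63.6%, against 27.6% of all tested probes). For 5 they lay below (22.7%, against 26.9%), and for 3 the groups overlapped. The probes behind the 14 belong to 4 genes, *SPARC*, *DCN*, *MMP2* and *TIMP1*. High-gain array a had the lowest signal on 13 of these 14. Over the 22 probes, the median absolute log2 difference was 0.088 between the low-gain arrays and 0.17 between the high-gain arrays. High-gain array a lay 0.42 from low-gain array a and 0.39 from low-gain array b, whereas high-gain array b lay 0.23 and 0.24 from the same arrays. The high-gain arrays were thus the more variable pair for these genes, and array b lay closer to low gain than array a did. This order was not particular to them. For the 31471 probes well above background on all 4 arrays, the value was 0.135 between the low-gain arrays and 0.145 between the high-gain arrays. There, high-gain array a lay 0.29 and 0.23 from low-gain arrays a and b, and high-gain array b lay 0.23 and 0.17.

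**Figure D1:**
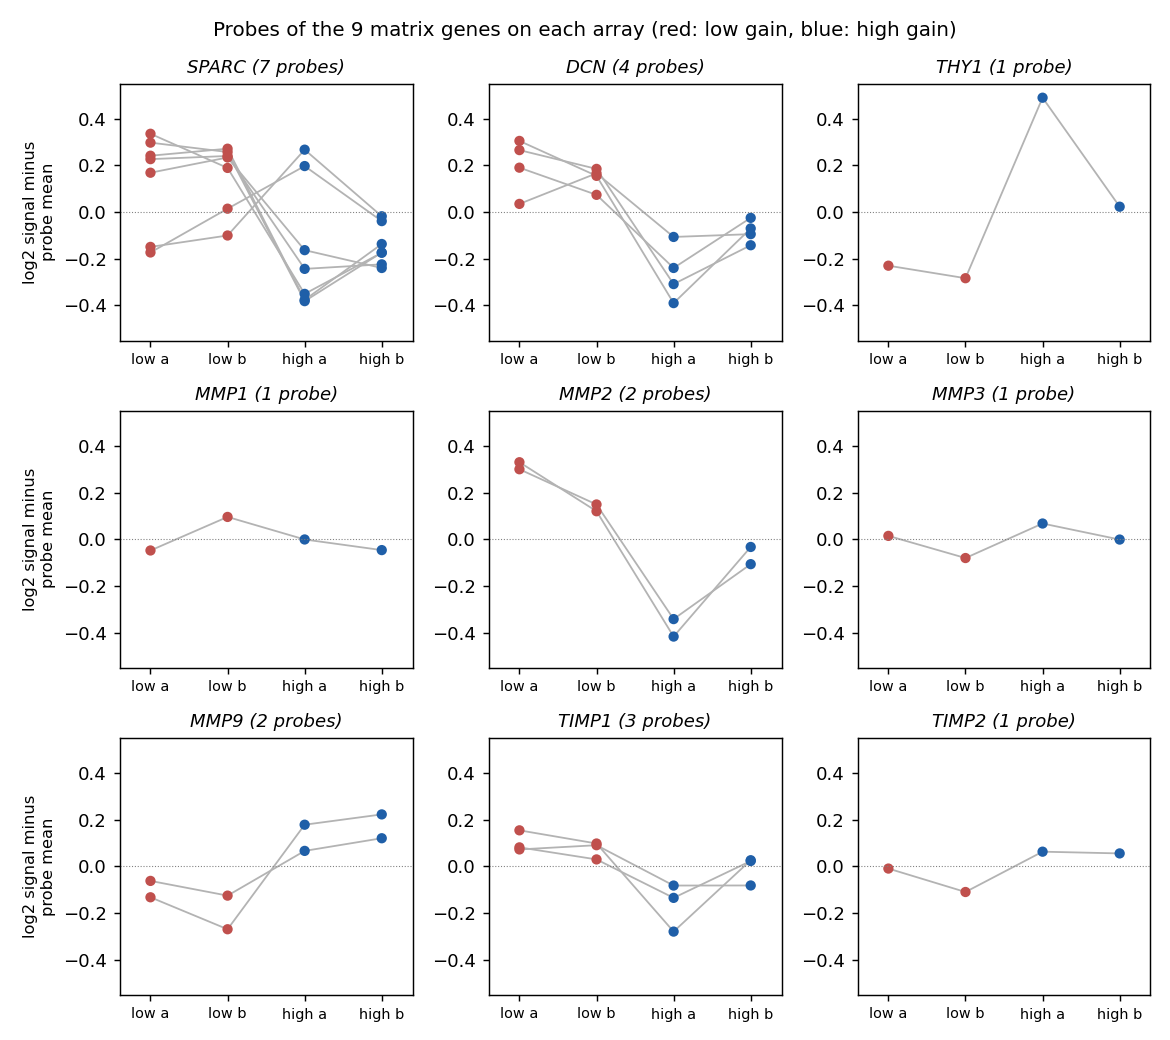
Normalised log2 signal of each of the 22 probes on each array, minus that probe's mean over the 4 arrays, with a panel for each gene; red points are low-gain arrays, blue points high-gain arrays, and grey lines join the values of 1 probe. *SPARC* (5 of its 7 probes), *DCN*, *MMP2* and *TIMP1* have both red points above both blue points, whereas *THY1*, *MMP9* and *TIMP2* have them below.

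Of the matrix proteins, *SPARC* encodes a collagen-binding glycoprotein secreted by stromal cells, which helps collagen to assemble. Its brightest probe had log2 levels of 5.94 (array a) and 5.80 (array b) in low gain, and of 5.26 and 5.43 in high gain. Both low-gain arrays were above both high-gain arrays. The difference was 0.52 ± 0.13 (95% interval 0.18 to 0.87, adjusted p = 0.197), larger than the gaps of 0.15 and 0.18 within groups but not past the test.

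The probes of *SPARC* fell into sets that disagreed in sign. The next 4 in brightness had differences of 0.55, 0.47, 0.51 and 0.40, with no overlap between groups on any of them. Among these, probe A_72_P615272 gave nearly the same value within each group, with 4.01 and 4.03 in low gain and 3.54 and 3.56 in high gain. It had the lowest unadjusted p of all 22 probes (0.00838, adjusted p = 0.184). The 2 dimmest probes went the other way. Probe A_72_P130355 had levels of 0.55 and 0.60 in low gain and of 0.97 and 0.68 in high gain, a difference of -0.25 ± 0.14 (adjusted p = 0.412). Probe A_72_P554191 had levels of 0.48 and 0.67 in low gain and of 0.85 and 0.62 in high gain, so that the groups overlapped (-0.16 ± 0.14). Without high-gain array a these differences were -0.11 and -0.041, and without high-gain array b they were -0.39 and -0.28. The second was also -0.065 without low-gain array a and -0.25 without low-gain array b. All 7 carry the same transcript accession, and their places within the transcript were not analysed here. The mean over all 7 gave 0.29 in place of 0.52.

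*DCN* encodes decorin, a small proteoglycan that coats collagen fibrils and binds transforming growth factor beta. Its brightest probe had levels of 5.89 and 5.74 in low gain and of 5.19 and 5.51 in high gain. The low-gain arrays were the higher ones, and the high-gain arrays differed by 0.32 from each other. The difference was 0.46 ± 0.16 (95% interval 0.024 to 0.90, adjusted p = 0.259). The other 3 probes gave 0.45, 0.20 and 0.26 in the same order of brightness, again without overlap between groups. Without high-gain array a the brightest probe's difference was 0.30 and the dimmest probe's 0.16.

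*THY1* encodes a small surface glycoprotein anchored by a lipid, found on fibroblasts, neurons and, in some species, T cells. Its only probe was the dimmest of the 22, with raw processed signals of 66.2 and 72.1 in low gain and of 128 and 90.4 in high gain. On the normalised scale this was -2.63 and -2.69 in low gain, and -1.91 and -2.38 in high gain. Both low-gain arrays lay below, and most of the spread was between the high-gain arrays, which differed by 0.47. The difference was -0.51 ± 0.19 (95% interval -1.04 to 0.018, adjusted p = 0.281). It was -0.28 without high-gain array a, and -0.18 after normexp background correction, which adds an offset and shrinks differences of dim probes. When local backgrounds above 100 were first replaced by the array's median background, normexp gave -0.13.

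Among the metalloproteinases, *MMP2* and *MMP9* encode the gelatinases, which cut denatured collagen and basement membrane collagen. *MMP2* is made mostly by stromal cells. Its brighter probe had levels of 3.61 and 3.46 in low gain and of 2.97 and 3.21 in high gain. The other probe had 3.22 and 3.01 in low gain and 2.47 and 2.86 in high gain. Both probes put low gain above high gain without overlap, with high-gain array a the lowest. The differences were 0.45 ± 0.14 (95% interval 0.067 to 0.83, adjusted p = 0.233) and 0.45 ± 0.18 (adjusted p = 0.303), and without high-gain array a the other probe's was 0.26.

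*MMP9*, a gelatinase stored in neutrophils and also made by macrophages, had the opposite sign. Its brighter probe had levels of 1.22 and 1.16 in low gain and of 1.35 and 1.41 in high gain. The dimmer probe had -1.27 and -1.41 in low gain and -0.96 and -0.92 in high gain. Low gain was lower on both probes, and the high-gain arrays differed by only 0.054 and 0.044. The differences were -0.19 ± 0.10 (95% interval -0.47 to 0.092, adjusted p = 0.396) and -0.40 ± 0.11 (95% interval -0.70 to -0.099, adjusted p = 0.212), and the mean over both probes gave -0.29. After normexp background correction they were -0.10 and -0.16, and -0.14 and -0.25 with bright local backgrounds replaced first. Markers of the cells that carry the enzyme were read beside it. Of 9 neutrophil markers 4 were measured, and *S100A8*, *S100A9* and *S100A12*, calcium-binding proteins of neutrophils, had differences of 1.06, 0.55 and 0.53, whereas *NCF1* had -1.11. Their summed level was 0.96 and 1.03 in low gain and 1.94 and 1.41 in high gain, and was made up mostly of *NCF1*. The mean log2 levels of *NCF1* were -0.56 in low gain and 0.55 in high gain, against -2.90 to -4.56 for the other markers. Of 8 macrophage markers 5 were measured, and by the brightest probe all 5 were lower in low gain. The median difference was -0.41, or -0.62 with probes averaged. Their signals summed to 40.8 and 40.3 on the low-gain arrays against 51.8 and 47.7 on the high-gain arrays. The brightest of these markers was *CD74*, with mean log2 levels of 4.37 for low gain against 4.80 (difference -0.43). *AIF1*, next in brightness, had -0.068, and its other probe gave 0.0021. *SIGLEC1* had -1.57 and was well above background on only 1 of the low-gain arrays. The part of neutrophils and macrophages in the *MMP9* values was not tested.

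*MMP1* encodes interstitial collagenase, which opens the collagen triple helix, and *MMP3* encodes stromelysin, which has broad substrates and activates other metalloproteinases. The *MMP1* probe had levels of 1.39 and 1.53 in low gain and of 1.44 and 1.39 in high gain. The *MMP3* probe had -0.92 and -1.02 in low gain and -0.87 and -0.94 in high gain. The groups overlapped for both genes. The 95% interval of the difference ran from -0.26 to 0.35 for *MMP1* (adjusted p = 0.832) and from -0.36 to 0.22 for *MMP3* (adjusted p = 0.751). The difference for *MMP3* ran from -0.11 to -0.019 when 1 array was left out, the former without low-gain array a and the latter without low-gain array b. The sign for *MMP1* turned in the authors' deposited values (-0.025) and without low-gain array b (-0.024).

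Of the inhibitors, *TIMP1* is inducible and acts on most metalloproteinases. Its brightest probe had levels of 4.60 and 4.54 in low gain and of 4.16 and 4.47 in high gain. Low gain was higher, with high-gain array b close to the low-gain arrays and high-gain array a apart from the other 3. The difference was 0.25 ± 0.15 (95% interval -0.15 to 0.66, adjusted p = 0.422), which was 0.10 without high-gain array a and 0.41 without high-gain array b. The other 2 probes gave 0.16 and 0.11, with groups that did not overlap. The first of these was 0.091 after normexp, and 0.13 with bright local backgrounds replaced first. The second was 0.033 without high-gain array a and 0.19 without high-gain array b. *TIMP2*, which is made more steadily and takes part in activating the *MMP2* product at the cell surface, had levels of 0.15 and 0.053 in low gain and of 0.23 and 0.22 in high gain. Its arrays did not overlap, with low gain the lower. The difference was -0.12 ± 0.10 (95% interval -0.40 to 0.17, adjusted p = 0.564). It was -0.069 without low-gain array b and -0.071 after normexp background correction, or -0.079 with bright local backgrounds replaced first. Whether the inhibitors differed from each other in their response was not tested.

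**Figure D2:**
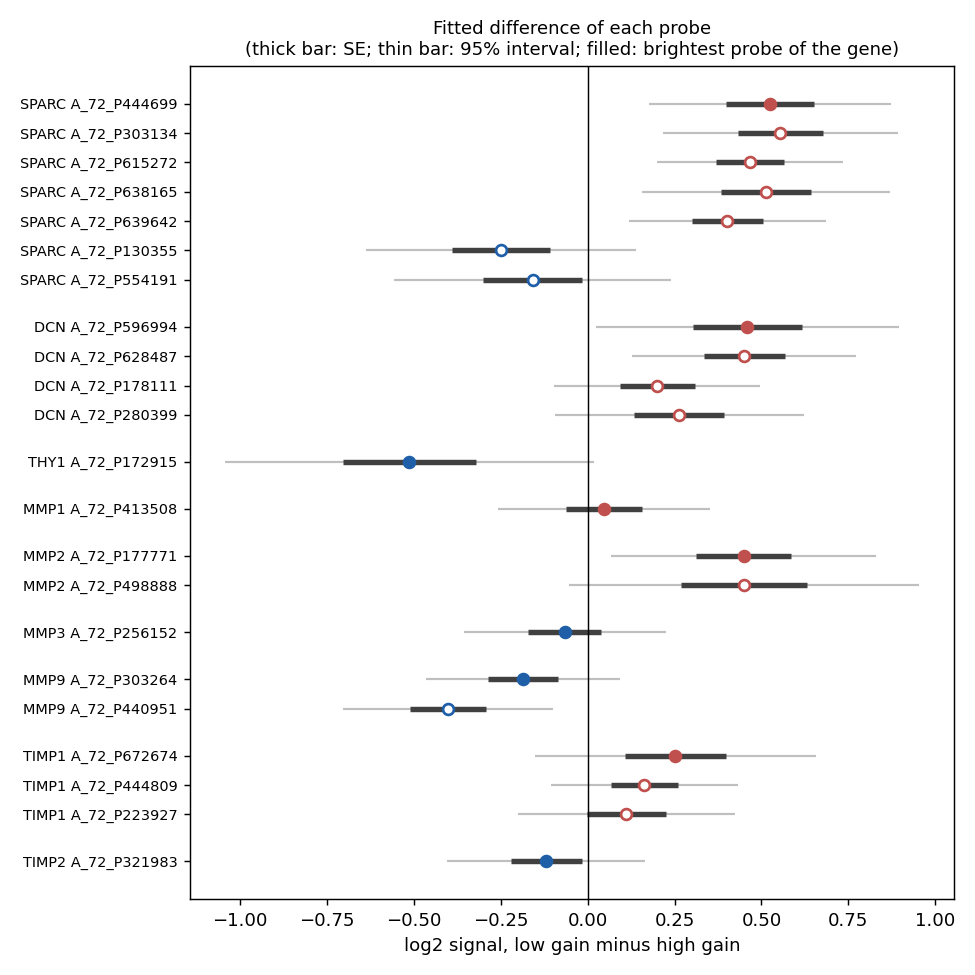
Difference in log2 signal (low gain minus high gain) of each of the 22 probes, grouped by gene and ordered by brightness within a gene; thick bars are 1 standard error, thin bars the 95% interval from limma, filled points the brightest probe of each gene. The interval includes 0 for 13 of the 22 probes, and the 2 dimmest probes of *SPARC* lie on the opposite side of 0 from its other 5.

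Set among the 2158 named genes that were tested, the differences of *SPARC*, *DCN* and *MMP2* stood at the 92.4th, 90.4th and 89.6th percentile from the low end, and that of *THY1* at the 7.04th. *TIMP1* was at the 77.3rd and *MMP9* at the 24.0th percentile. *MMP1*, *TIMP2* and *MMP3* were at the 53.8th, 31.2nd and 38.0th. The median difference over the 9 genes was 0.047 (5 higher and 4 lower), beside 0.025 over all 2158 genes. The differences of all probes changed little with signal strength over the range of these probes. In steps of 1 log2 unit from -3 to 6, the median difference of all tested probes stayed between -0.0073 and 0.033. It was highest in the brightest step.

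Other matrix genes were read from lists of related proteins, 45 genes in all, of which 0 passed limma's test in either direction. At an unadjusted p under 0.05 there were 9 (6 higher and 3 lower in low gain), or 20%, where 21.6% of all named genes did. With the intensity trend 2 passed (*ITIH4* and *SPP1*), where 3.76% of all tested probes did. Of 42 other matrix proteins and proteoglycans 8 were measured, 7 of them higher in low gain by the brightest probe, where 53.4% of all named genes were. The median difference was 0.26 (0.15 with the probes of each gene averaged). Of the 7, *FBN1* (0.11) had -0.50 and -0.48 on its 2 other probes, and *VTN* (0.22) had -0.65 to 0.22 on its 5 others. *SPP1*, which encodes osteopontin, had 0.52 ± 0.10 (its 3 other probes -0.11 to 0.42), and *TNC*, which encodes tenascin C, had 0.52 ± 0.13 (its other probe 0.087). *SPARCL1*, the close relative of *SPARC*, was picked after its values were seen and had 0.43 ± 0.14, with 0.32 to 0.53 on its 6 other probes. Of 26 collagen genes only 3 were measured, with a median of 0.12, led by *COL10A1* (0.16) and *COL5A2* (0.12), and the arrays of the groups overlapped for all 3. Of 17 genes for collagen processing 2 were measured, *CTSK* (-0.16) and *P4HA1* (-0.082, its 6 other probes 0.090 to 0.24).

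Of 33 other metalloproteinase genes 6 were measured, 4 higher and 2 lower (median 0.20). *MMP20* had 0.32 (its other probe 0.067) and *MMP12*, the macrophage elastase, had 0.28. *MMP14*, whose product activates that of *MMP2* together with *TIMP2*, was picked after its values were seen and had -0.15 ± 0.11 (adjusted p = 0.498). The median of this list turned to -0.12 when the probes of each gene were averaged. Of 13 other inhibitors 7 were measured (median 0.071). *ITIH4* had 1.58 (its 2 other probes 0.16 and 1.35), and *ITIH1* had -0.98 ± 0.66, whose other probe gave 0.78. The *ITIH1* difference came from low-gain array a, with levels of -1.81 and 0.037 in low gain and of 0.15 and 0.038 in high gain. In the plasminogen system, which activates metalloproteinases, *PLAT* had 0.31 and *PLAU* 0.14, whose other probe gave -0.49. The median of this list was 0.22, and 0.091 with probes averaged.

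Of 19 genes of the transforming growth factor beta pathway 10 were measured, 6 higher and 4 lower (median 0.027, and -0.056 with probes averaged). The receptor genes *TGFBR3* and *TGFBR1* had -1.06 ± 0.23 (adjusted p = 0.186) and -0.31. Of 19 matrix receptor genes 7 were measured (median 0.012, and 0.11 with probes averaged). *ITGB6* had -0.46, well above background on 1 of the low-gain arrays, and *ITGAV* had 0.24 (its 4 other probes -0.28 to 0.37). No list is described as standing apart, since the lists were not tested against other genes.

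**Figure D3:**
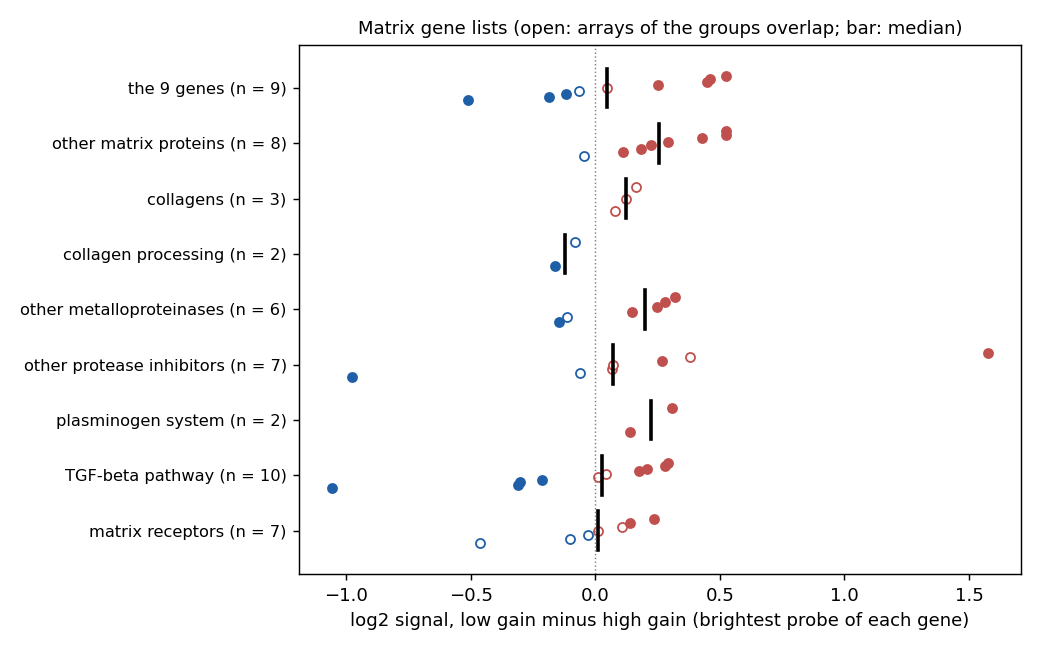
Difference in log2 signal (low gain minus high gain) of every measured gene in each list, by its brightest probe; black bars are medians, open points are genes whose arrays overlap between groups. The 9 genes described here spread from -0.51 to 0.52, while 7 of the 8 other matrix proteins lie above 0 by that probe, where 53.4% of all named genes do.

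Markers of other cell types were read beside the matrix genes. Of 9 smooth muscle markers 5 were measured, 4 of them higher in low gain (median 0.48), and their summed level was 308 and 303 in low gain against 235 and 233 in high gain. The median had the same sign as *SPARC*, *DCN* and *MMP2*, as did those of the enterocyte, neutrophil, lymphocyte and adipocyte markers. *DES*, the muscle filament gene desmin, was the brightest of the 5 and had 0.51, but -0.34 and -0.023 on its 2 other probes. *ACTA2* had -0.25, with -0.61 to 0.23 on its 3 other probes. Of 11 endothelial markers 5 were measured, 3 higher and 2 lower. Their median was 0.056, but -0.26 with probes averaged, and their summed levels overlapped (8.46 and 8.64 against 8.54 and 8.31). The 10 measured enterocyte markers had a median of 0.38, with summed levels of 1040 and 1087 against 885 and 967. The 7 adipocyte markers had a median of 0.20 (0.014 with probes averaged), and their summed levels were 4.33 and 3.55 against 5.42 and 5.64. Of these, *FABP4*, *PLIN1* and *ADIPOQ* had differences of -1.55, -1.63 and -0.96, with *PLIN1* well above background on 1 of the low-gain arrays. The 5 other probes of *FABP4* gave -1.60 to -1.35. By contrast, *LEP*, *CIDEC*, *LPL* and *PPARG* had 0.33, 0.30, 0.20 and 0.20. The groups overlapped for *LEP* (standard error 0.95) and *PPARG*, and *LPL* had -0.52 to 0.25 on its 4 other probes. Of 10 lymphocyte markers 8 were measured, with a median of 0.29 and overlapping sums (17.6 and 16.4 against 16.4 and 18.6). The part of any of these cells in the matrix gene values was not tested.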

How the data were processed

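Each scanner file, as deposited, gives linear spot intensity after background treatment, with 0 or 1 flags as other values per spot; the authors ran Agilent Feature Extraction (version 10.7.3.1 in the file headers). The authors' deposited log2 table of the same arrays has no stated processing. Set against log2 processed signal of its array it had slopes from 1.00 to 1.01, and its column medians were 5.62, 5.59, 5.67 and 5.60 (low-gain a and b, high-gain a and b). Its scale is thus known, but its background treatment is not, and it served as an alternative.

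Processed signals were put on a log2 scale, the 75th percentile over non-control spots of each array was subtracted, and flagged spots were left out. Probes well above background on both arrays of at least 1 group were tested (33265 of 43603) with limma 3.58.1 in R 4.3.3, low gain minus high gain, and adjusted over all tested probes. The script was tested on simulated data. The probe with the highest mean signal stood for a gene. A list's summed level adds the linear signals, relative to the 75th percentile, of its measured genes, given for arrays a and b. The rule named every probe of the 9 genes and, per list with no call, the 2 genes with the largest difference. Names came from the Sscrofa11.1 gene table (5461 of 5779 RefSeq probes matched). No coordinates are given, since the files name no build. The number of arrays limits precision. The genes, lists and tests were chosen with earlier results of these data known.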

Additional observations from a re-analysis of the deposited data

How the results depend on the processing

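The count of probes past the test among all tested was 163 with median centring, 12 with no filter on dim probes, 1250 with the intensity trend and 0 with normexp, with signal required on all 4 arrays or with the letter as a replicate block. It was 0 to 37 when 1 array was left out. In settings added after the data were seen it was 850 with normexp and bright local backgrounds replaced, and, under the trend, 197, 462, 130 and 542 on leaving out low-gain a, low-gain b, high-gain a and high-gain b in turn. The highest local background of any spot was 166072 on low-gain array a and 104994 on high-gain array b. It was 29 on low-gain array b and 27 on high-gain array a. Normexp without replacement used these backgrounds as they were. The cause of the changes in count was not tested, except that leaving out an array leaves 1 residual degree of freedom. Among the 22 matrix probes the count was 6 with the trend, 1 with normexp and bright backgrounds replaced and 2 with the trend and high-gain array b left out, and *SPARC* was the only gene of the 9 whose brightest probe passed in any setting (0.52, with the trend). It was 0 in every other setting, including the replicate block. *MMP1* turned to -0.025 in the deposited values, to -0.011 with normexp and bright backgrounds replaced and ran from -0.024 to 0.12 when 1 array was left out. The other 8 genes kept their sign in every setting run, which a filter, the trend or the block cannot change by construction. The a minus b differences of the groups were close to uncorrelated (-0.037 over 33265 probes), which does not show what the letters stand for.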
